A study of Rattus norvegicus with 17 samples.

Results

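The proteasome genes of CD4+ T helper cells were examined over 3 vitamin D diets. Members were taken by name: every gene whose symbol on the array begins with Psma, Psmb, Psmc, Psmd, Psme, Psmf or Psmg, counted where an array feature carried that symbol alone. This gave 47 of the 14506 genes on the table. Each gene was represented by its feature with the highest mean over all arrays. RNA was measured on 17 Affymetrix whole-transcript rat arrays, 1 per sample. The cells were CD4+ T cells, flow-sorted from inguinal lymph nodes. They came from female rats of the inbred Dark Agouti strain, and every animal had been immunized with myelin oligodendrocyte glycoprotein (MOG), which starts experimental autoimmune encephalomyelitis (EAE), used as a model for multiple sclerosis. Nodes were taken on day 7 after immunization, so no diet had unimmunized rats to set beside it. The deprived diet held 0 IU of vitamin D (5 arrays), the regular diet 2 IU (6 arrays) and the supplemented diet 10 IU (6 arrays), and all were fed for 5 weeks before immunization and from then on. How much feed these units apply to is not stated. The titles call the samples biological replicates, and p-values measure the spread between them.

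The proteasome is the barrel-shaped protease that degrades proteins tagged with ubiquitin. Its core is a stack of rings: the alpha rings gate the entrance, and the inner beta rings hold the cutting sites. A regulatory cap of ATPase and non-ATPase subunits binds the ubiquitin chain, removes it, unfolds the substrate and feeds it into the core. Interferon gamma induces 3 replacement cutting subunits, which turn the core into the immunoproteasome, known for making peptides that MHC class I molecules present. Lymphocytes express the immunoproteasome subunits without that stimulus as well. Activated T cells use proteasomes to degrade, among others, cell cycle inhibitors and the inhibitor of NF-kappa B.

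The promoters of 7 members are shown, because the results turn on 3 exchangeable pairs of cutting subunits and on Psmd1, the gene with the widest difference between the 0 IU and 2 IU diets. Each is a window from 250 bases before to 50 bases after the start of the gene, on the gene's own strand, from RefSeq on the rat assembly GRCr8. Capitals mark matches on either strand to TGACNNNGC, the core of the antioxidant response element, or to the core of the interferon-stimulated response element, which is GAAA, 2 bases of any kind and GAAA again. The first is the kind of site bound by Nfe2l1, the factor known for raising proteasome genes in mammalian cells, and the second by interferon regulatory factors. Psmb5 lies at chr15:32047330-32047629 on the minus strand, Psmb6 at chr10:55737638-55737937 on the plus strand, and Psmb7 at chr3:42827421-42827720 on the minus strand. Psmb8 lies at chr20:4656982-4657281 on the minus strand and Psmb9 at chr20:4668750-4669049 on the plus strand, both in the MHC region. Psmb10 lies at chr19:50743243-50743542 on the minus strand and Psmd1 at chr9:94157721-94158020 on the plus strand.
Psmb5: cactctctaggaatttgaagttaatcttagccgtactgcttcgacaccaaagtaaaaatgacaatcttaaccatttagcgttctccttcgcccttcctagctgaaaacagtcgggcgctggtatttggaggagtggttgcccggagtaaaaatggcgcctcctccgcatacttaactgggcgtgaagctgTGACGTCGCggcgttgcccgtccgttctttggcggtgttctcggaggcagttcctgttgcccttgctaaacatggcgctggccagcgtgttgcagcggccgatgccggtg
Psmb6: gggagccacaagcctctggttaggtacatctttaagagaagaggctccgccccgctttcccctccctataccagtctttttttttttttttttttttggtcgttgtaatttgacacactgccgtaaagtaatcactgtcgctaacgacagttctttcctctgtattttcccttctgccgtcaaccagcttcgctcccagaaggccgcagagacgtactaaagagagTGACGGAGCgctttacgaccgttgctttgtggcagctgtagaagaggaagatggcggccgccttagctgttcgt
Psmb7: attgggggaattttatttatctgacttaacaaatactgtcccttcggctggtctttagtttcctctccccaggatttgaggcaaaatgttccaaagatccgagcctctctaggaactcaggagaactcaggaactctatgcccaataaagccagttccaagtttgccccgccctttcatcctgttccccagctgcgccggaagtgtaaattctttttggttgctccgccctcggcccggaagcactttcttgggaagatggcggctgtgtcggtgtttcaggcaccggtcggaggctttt
Psmb8: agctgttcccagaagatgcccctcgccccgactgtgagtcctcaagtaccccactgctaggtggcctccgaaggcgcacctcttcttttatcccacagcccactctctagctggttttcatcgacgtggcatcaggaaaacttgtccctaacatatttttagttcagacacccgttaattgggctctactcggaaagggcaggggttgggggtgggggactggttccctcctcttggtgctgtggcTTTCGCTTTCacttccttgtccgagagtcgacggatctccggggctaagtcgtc
Psmb9: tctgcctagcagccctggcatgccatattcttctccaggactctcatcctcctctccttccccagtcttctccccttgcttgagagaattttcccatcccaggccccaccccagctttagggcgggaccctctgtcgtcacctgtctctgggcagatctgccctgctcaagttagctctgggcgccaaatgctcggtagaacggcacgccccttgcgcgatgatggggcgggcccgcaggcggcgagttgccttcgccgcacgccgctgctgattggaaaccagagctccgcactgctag
Psmb10: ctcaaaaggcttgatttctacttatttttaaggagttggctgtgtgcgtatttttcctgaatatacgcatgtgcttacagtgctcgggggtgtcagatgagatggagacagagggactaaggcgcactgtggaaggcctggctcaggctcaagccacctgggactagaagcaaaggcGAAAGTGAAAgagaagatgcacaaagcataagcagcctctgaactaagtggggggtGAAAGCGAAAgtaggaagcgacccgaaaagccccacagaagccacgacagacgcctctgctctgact
Psmd1: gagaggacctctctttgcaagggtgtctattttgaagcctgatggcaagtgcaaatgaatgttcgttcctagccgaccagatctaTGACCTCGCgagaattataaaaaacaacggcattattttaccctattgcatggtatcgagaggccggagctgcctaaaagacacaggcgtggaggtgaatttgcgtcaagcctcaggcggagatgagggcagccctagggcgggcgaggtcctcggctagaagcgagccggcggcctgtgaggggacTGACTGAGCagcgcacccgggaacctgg
Psmb5 held an antioxidant core starting 60 bases before the start site, and Psmb6 held one starting 24 bases before it. Psmd1 held one starting 165 bases before the start site and another from base 23 after it. Psmb10 held interferon cores starting 73 and 17 bases before the start site, and that of Psmb8 began 4 bases before the start site and ran across it. The windows of Psmb7 and Psmb9 held neither. Of the 47 members, 41 had a window in the table. The antioxidant core was present in 7 of the 41 (17.1%), Psmb2, Psmb5, Psmb6, Psmd1, Psmd3, Psmd9 and Psme4, against 14.8% of 9491 tested genes and 12.1% of all 33469 windows. The interferon core was present in 7 (17.1%), Psma4, Psmb3, Psmb8, Psmb10, Psmd7, Psme2 and Psmg4, against 3.11% of tested genes and 3.92% of all windows. TTCNNNGAA, the core of the gamma-activated site, was present in 4 (9.76%, against 6.63% of tested genes and 8.87% of all windows). CCAAT was present in 20 (48.8%, against 37.8% and 37.5%) and GGGCGG in 29 (70.7%, against 58.6% and 33.1%). Matches of different motifs shared bases in 1 member window, that of Psmb2, where the antioxidant core overlapped CCAAT and GGGCGG. A match is a run of letters, not a measured binding site.

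Some facts of the whole data set bear on the members. All 12 T cell markers on the table passed the filter on dim genes, and their mean log2 value per array was 10.3 to 10.5 in the 0 IU diet, 10.3 to 10.5 in the 2 IU diet and 10.1 to 10.3 in the 10 IU diet. The spread of an array, the standard deviation (SD) of all its log2 values, was 2.03 to 2.07, 2.00 to 2.06 and 1.91 to 1.97 in those diets, so the supplemented arrays did not overlap the others. The supplemented replicates 2 and 5 had the smallest spreads, 1.911 and 1.908, and the counts that involve the 10 IU diet are given without them too. Of the markers of other cells, the B cell list had 5 of 7 tested genes higher in the supplemented than in the regular diet, against 10.8% of all genes. Its array means were 6.20 to 6.63 in the supplemented diet against 6.00 to 6.39 in the regular diet. Cd22, the brightest of the 7, went the other way, with -0.49 (limma, adjusted p = 0.0704). The macrophage, monocyte and neutrophil list had 2 of 12 higher and 1 lower, against 10.8% and 22.9% of all genes. Its array means were 6.34 to 6.51 in the supplemented diet against 6.26 to 6.41 in the regular diet. The dendritic cell list had 0 of 8 called by limma. The remaining lists, of CD8 T and NK cells, plasma cells and stroma, had at most 1 gene called in either direction in that comparison.

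In the supplemented against the regular diet the proteasome genes were lower almost throughout. Of the 47 members, 46 passed the filter on dim genes, and 39 of these were lower in the 10 IU diet, against 22.9% of all 10879 genes tested (limma, adjusted p under 0.05 after Benjamini-Hochberg over all genes). By limma, 0 members were higher, against 10.8% of all genes, and 0 were higher at an unadjusted p under 0.05. The median change of the 46 was -0.40 on the log2 scale, beside 0.00061 over all genes tested. In 29 members every supplemented array lay below every regular array, which was so for 9.92% of all genes. The remaining member, Psmb11, a core subunit known from the thymus, averaged 4.923 and lay below the filter, whose lowest mean was 5.321. The proteasome genes averaged 8.72 to 9.01 per array in the 10 IU diet, against 9.20 to 9.42 in the 2 IU diet, so the averages did not overlap. With the array spread as a covariate 0 of the 39 calls remained and the median change of the members was -0.12. At an unadjusted p under 0.05, 8 members were lower and 1, Psme4, was higher in that fit. The share of all genes at that p is not given. At an adjusted p under 0.05, 0 of all 10879 genes were called in it. The diets differ in spread, so diet and spread cannot be told apart in these arrays.

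**Figure D1:**
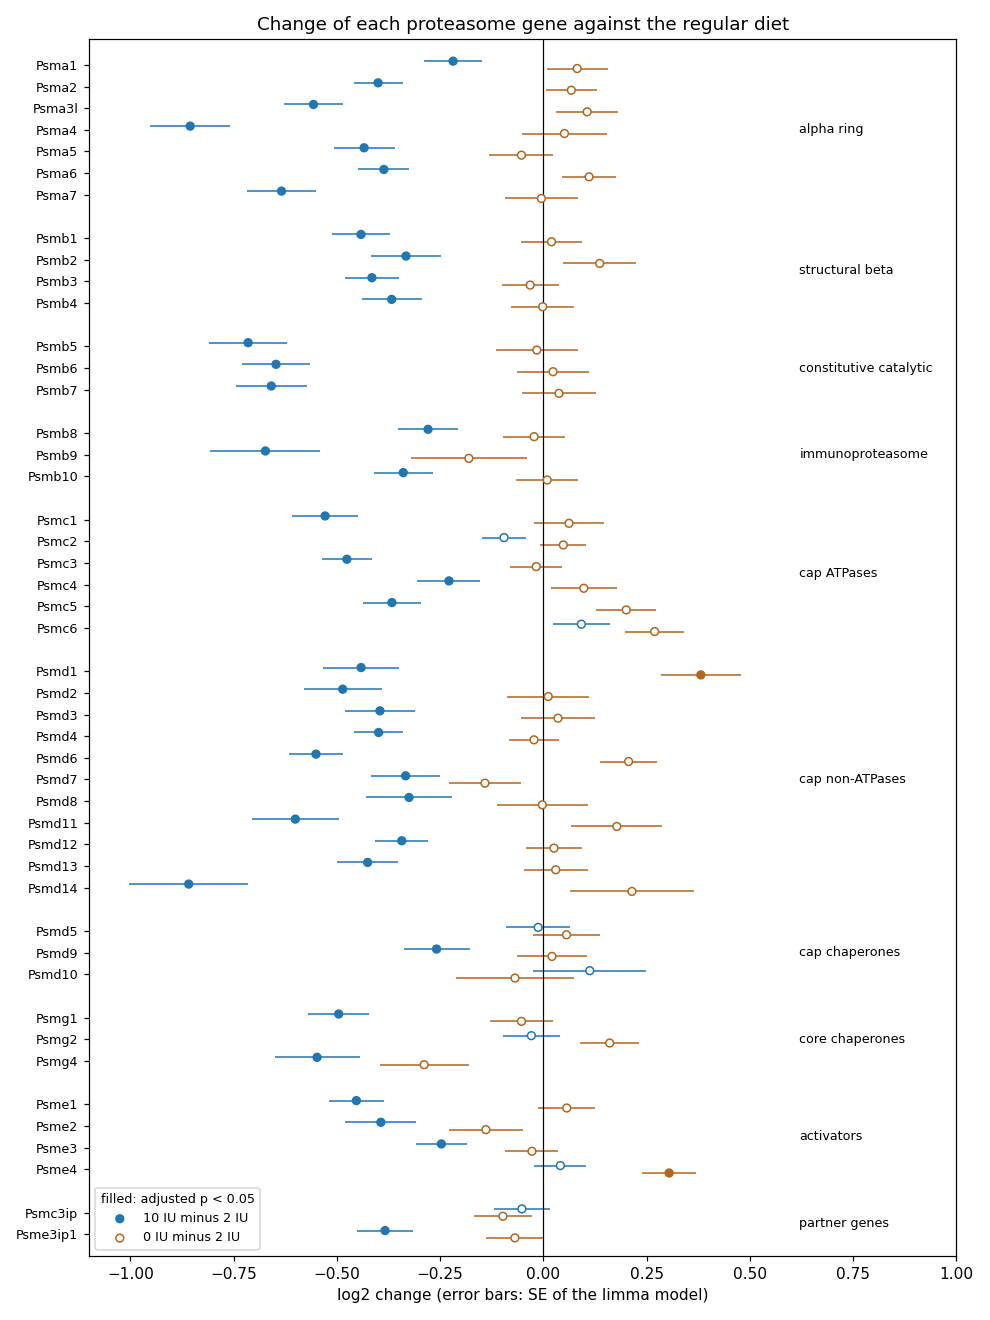
Change of each of the 46 tested proteasome genes in log2 units for 10 IU minus 2 IU (blue) and 0 IU minus 2 IU (orange), with the standard error of the limma model as bars and filled points for an adjusted p under 0.05. The 39 filled blue points all lie left of 0, and 2 orange points, Psmd1 and Psme4, are filled.

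All 7 alpha ring genes, which form the gate of the core, were lower in the 10 IU diet, with changes of -0.86 to -0.22 and a median of -0.43. Psma4 had a lowest, median and highest log2 value of 8.57, 8.99 and 9.41 in the 10 IU diet, against 9.70, 9.82 and 9.98 in the 2 IU diet. The highest supplemented array thus lay below the lowest regular one. Its change was -0.86 ± 0.10 (SE), 44.7% less on the linear scale (limma, adjusted p = 2.63e-06). Psma7 changed by -0.63 and Psma3l by -0.56, both with no overlap between the diets. Psma3l is listed in RefSeq as a synonym of Psma3, and an array feature annotated to both symbols, which the name rule left out, changed by -0.12. That feature was the brighter one. It averaged 11.2 in the 10 IU and 11.4 in the 2 IU diet, against 9.47 and 10.0 for the feature used. Psma1 changed least in this ring, by -0.22 (limma, adjusted p = 0.0205). Its groups overlapped, with 10.5, 10.8 and 11.0 in the 10 IU diet against 10.8, 10.9 and 11.1 in the 2 IU diet. Its call was lost after quantile normalization (-0.04, limma adjusted p = 0.711), and without supplemented replicate 2 or regular replicate 1, with changes from -0.26 to -0.17 over single arrays left out.

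The 4 structural beta genes, which build the inner rings without cutting, were all lower, and their changes ran from -0.44 for Psmb1 through -0.42 for Psmb3 and -0.37 for Psmb4 to -0.33 for Psmb2 (limma, adjusted p from 6.05e-05 to 0.0047). Psmb1 and Psmb3 did not overlap between the diets, and Psmb2 and Psmb4 did. Psmb2 missed the threshold after quantile normalization (-0.16, limma adjusted p = 0.126) and after cyclic loess, and Psmb4 after cyclic loess (-0.16, limma adjusted p = 0.079). The 3 constitutive cutting genes stood within a narrow range. Psmb5, the chymotrypsin-like subunit, had a lowest, median and highest log2 value of 7.00, 7.31 and 7.55 in the 10 IU diet, against 7.91, 8.001 and 8.27 in the 2 IU diet. The diets did not overlap, and the change was -0.71 ± 0.10 (SE; limma, adjusted p = 1.06e-05), 39.1% less on the linear scale. Psmb6, the caspase-like subunit, had 8.67, 8.94 and 9.16 in the 10 IU diet, against 9.44, 9.58 and 9.70 in the 2 IU diet. Psmb7, the trypsin-like subunit, had 9.47, 9.96 and 10.2 in the 10 IU diet, against 10.4, 10.6 and 10.8 in the 2 IU diet. Neither gene overlapped between the diets. Their changes were -0.65 ± 0.08 and -0.66 ± 0.09 (SE; limma, adjusted p = 7.99e-06 and 9.56e-06).

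The 3 immunoproteasome cutting genes were lower too, and 2 of them by less. Psmb8, which takes the place of Psmb5, had a lowest, median and highest log2 value of 8.32, 8.64 and 8.77 in the 10 IU diet, against 8.79, 8.89 and 9.00 in the 2 IU diet. The diets did not overlap, with a gap of 8.77 to 8.79 between them. Its change was -0.28 ± 0.07 (SE; limma, adjusted p = 0.00522), 17.6% less on the linear scale, and it missed the threshold after quantile normalization (-0.14, limma adjusted p = 0.109). Psmb10, which takes the place of Psmb7, had 8.45, 8.69 and 8.76 in the 10 IU diet, against 8.80, 9.00 and 9.15 in the 2 IU diet. The change of Psmb10 was -0.34 ± 0.07 (SE; limma, adjusted p = 0.00102). Psmb9, which takes the place of Psmb6, had 8.51, 9.09 and 9.37 in the 10 IU diet, against 9.40, 9.62 and 10.1 in the 2 IU diet. Its change was -0.67 ± 0.13 (SE; limma, adjusted p = 0.000573), and its SD of 0.37 over the supplemented arrays was the widest of the 6 cutting genes. With the array spread as a covariate the signs of all 3 turned, to 0.09 for Psmb8, 0.02 for Psmb10 and 0.16 for Psmb9. In that fit Psmb5, Psmb6 and Psmb7 stayed negative with a median of -0.26. None of the 6 cutting genes passed in it.

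**Figure D2:**
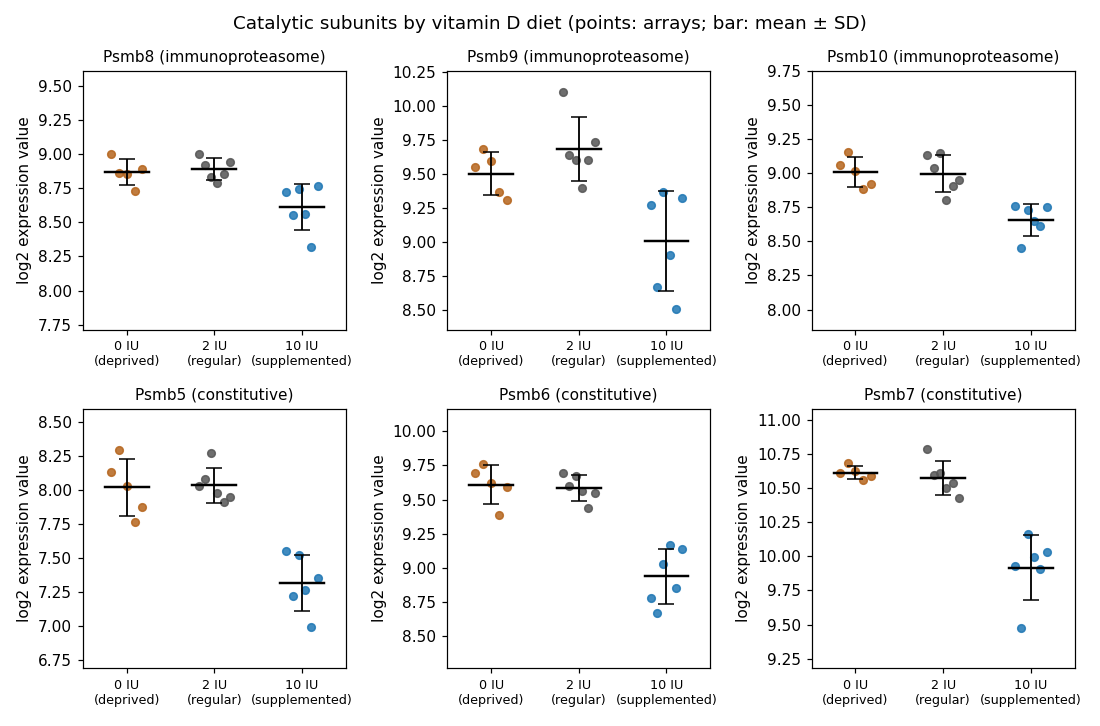
Log2 values of the 6 cutting subunits by diet, 1 point per array, with the mean and SD as bars (n = 5, 6 and 6 arrays for 0, 2 and 10 IU). Each panel has its own range on an axis of equal length, and in all 6 panels the 10 IU points lie below the 2 IU points.

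To ask whether an immunoproteasome gene and the gene it replaces changed by different amounts, the difference of their log2 values was taken within each array. This difference says nothing of which subunit is more abundant, since the features of different genes are not on a common scale. For Psmb8 minus Psmb5 it was 1.29 ± 0.09 in the 10 IU diet, against 0.86 ± 0.16 in the 2 IU diet (SD, n = 6 each), and the arrays did not overlap, with 1.17 to 1.41 in the 10 IU diet and 0.56 to 1.00 in the 2 IU diet. The gap between the means was 0.44 (two-sided exact permutation p = 0.00216, the smallest that these groups allow, adjusted p = 0.00649 over 9 tests). For Psmb10 minus Psmb7 it was -1.26 ± 0.14 in the 10 IU diet, against -1.58 ± 0.10 in the 2 IU diet (SD, n = 6 each), again without overlap. Its gap was 0.32 (exact permutation, adjusted p = 0.00649). The features of Psmb5 and Psmb7 thus fell by more than those of Psmb8 and Psmb10. Whether features of different genes respond alike to the same change in RNA was not tested. For Psmb9 minus Psmb6 the difference was 0.07 ± 0.33 in the 10 IU diet, against 0.09 ± 0.20 in the 2 IU diet (SD, n = 6 each). These arrays overlapped, with a gap of -0.03 (exact permutation, adjusted p = 0.965). After quantile normalization the gaps were 0.54 for Psmb8 minus Psmb5, 0.28 for Psmb10 minus Psmb7 and -0.04 for Psmb9 minus Psmb6. With 6 arrays a diet, the values of the third pair do not show that its genes changed by equal amounts.

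**Figure D3:**
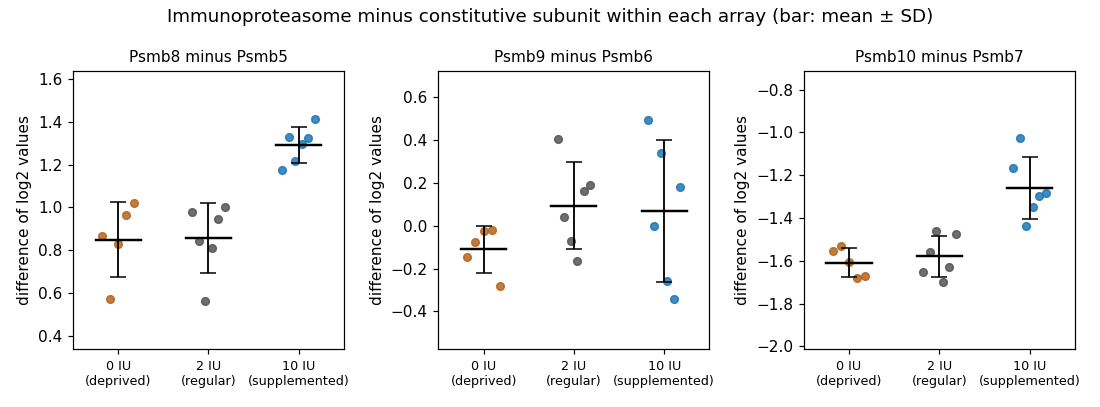
Difference of log2 values within each array between an immunoproteasome subunit and the constitutive subunit it replaces, by diet, with the mean and SD as bars (n = 5, 6 and 6 arrays for 0, 2 and 10 IU). The 10 IU points lie above the others for Psmb8 minus Psmb5 and Psmb10 minus Psmb7 and among them for Psmb9 minus Psmb6.

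Of the 6 cap ATPases, the ring that unfolds substrates, 4 were lower in the 10 IU diet. Psmc1 changed by -0.53, Psmc3 by -0.48, Psmc5 by -0.37 and Psmc4 by -0.23 (limma, adjusted p = 4.21e-05, 7.59e-06, 0.000384 and 0.0249). Psmc1, Psmc3 and Psmc5 did not overlap between the diets, and Psmc4 did and was lost without any 1 of 4 arrays, supplemented replicates 2 and 3 and regular replicates 1 and 3 (changes from -0.26 to -0.19). It was also lost after quantile normalization (-0.08, limma adjusted p = 0.453) and after cyclic loess. The other 2 ATPases did not pass. Psmc2 had a change of -0.10 (limma, adjusted p = 0.162), which was 0.08 after quantile normalization. Psmc6 had a lowest, median and highest log2 value of 8.61, 8.70 and 8.82 in the 10 IU diet, against 8.35, 8.65 and 8.78 in the 2 IU diet, and a change of 0.09 (limma, adjusted p = 0.297). After quantile normalization Psmc6 was higher, by 0.23 (limma, adjusted p = 0.0122), and after cyclic loess also by 0.23.

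All 11 non-ATPase cap subunits were lower, from -0.86 to -0.33. Psmd14, the deubiquitinase that removes the ubiquitin chain, had a lowest, median and highest log2 value of 8.46, 9.17 and 9.65 in the 10 IU diet, against 9.76, 10.0 and 10.1 in the 2 IU diet. Its change was -0.86 ± 0.14 (SE; limma, adjusted p = 0.000113), with no overlap and an SD of 0.46 over the supplemented arrays against 0.16 over the regular ones. Psmd11 changed by -0.60 and Psmd6 by -0.55 (limma, adjusted p = 0.00017 and 3.72e-06), both lid subunits without overlap between the diets. Psmd4, a receptor that binds ubiquitin chains, had 7.67, 7.84 and 7.94 in the 10 IU diet, against 8.18, 8.25 and 8.27 in the 2 IU diet. The Psmd4 change was -0.40 ± 0.06 (SE; limma, adjusted p = 2.97e-05), and the regular arrays spanned 0.09 log2 units. Psmd2, a base scaffold, changed by -0.49, and Psmd1, the other large base scaffold, by -0.44. Psmd13 changed by -0.43, Psmd3 by -0.40 and Psmd12 by -0.34. The groups of Psmd1, Psmd3, Psmd7 and Psmd8 overlapped. Psmd7, the partner of Psmd14, changed by -0.33 and Psmd8 by -0.33 (limma, adjusted p = 0.00429 and 0.0205), and Psmd8 was lost without supplemented replicate 5 or regular replicate 1. Psmd7 was lost after quantile normalization (-0.20, limma adjusted p = 0.0533) and after cyclic loess. With the array spread as a covariate the signs of Psmd3 and Psmd7 turned, to 0.06 and 0.03.

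The chaperones that help build the particle were mixed. Of the 3 cap chaperones, Psmd9 was lower by -0.26 (limma, adjusted p = 0.0166). Psmd5 had a change of -0.01 and Psmd10 of 0.11 (limma, adjusted p = 0.91 and 0.537), and Psmd5 had 0.08 after quantile normalization. Of the 3 core chaperones, Psmg4 was lower by -0.55 and Psmg1 by -0.50, both with no overlap between the diets (limma, adjusted p = 0.00035 and 3.33e-05). Psmg2, which works as a dimer with Psmg1, had a lowest, median and highest log2 value of 8.28, 8.48 and 8.68 in the 10 IU diet, against 8.45, 8.51 and 8.60 in the 2 IU diet. Its change was -0.03 (limma, adjusted p = 0.758) and 0.11 after quantile normalization.

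The activators are caps that open the core without ATP. Psme1 and Psme2 form the activator that interferon gamma induces. Psme1 had a lowest, median and highest log2 value of 10.0, 10.4 and 10.4 in the 10 IU diet, against 10.7, 10.7 and 10.9 in the 2 IU diet, and a change of -0.45 ± 0.07 (SE; limma, adjusted p = 2.78e-05) without overlap. Psme2 had 9.65, 9.93 and 10.1 in the 10 IU diet, against 10.1, 10.3 and 10.5 in the 2 IU diet, and a change of -0.39 ± 0.09 (SE; limma, adjusted p = 0.00134). The groups of Psme2 overlapped, and its sign turned to 0.04 with the array spread as a covariate. Psme3, the subunit of the nuclear activator, was lower by -0.25 (limma, adjusted p = 0.00382). It missed the threshold after quantile normalization. Psme4, the large single-chain nuclear activator, had 8.87, 8.96 and 9.13 in the 10 IU diet, against 8.81, 8.93 and 9.08 in the 2 IU diet. Its groups overlapped and its change was 0.04 (limma, adjusted p = 0.627), but after quantile normalization it was higher, by 0.20 (limma, adjusted p = 0.00801), and after cyclic loess also by 0.20. Psmf1, the proteasome inhibitor, had no feature of its own by the name rule. The 2 genes that the name rule caught although they encode no subunit or assembly factor were Psme3ip1, a binding partner of Psme3, with a change of -0.38 (limma, adjusted p = 0.000176), and Psmc3ip, a factor of meiotic recombination, with -0.05 (limma, adjusted p = 0.56).

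For 7 members a second array feature carried the same symbol, and in all 7 its change had the same sign. The second feature of Psmb6 changed by -0.71 beside -0.65 for the one used, and that of Psme2 by -0.50 beside -0.39. The second feature of Psme1 had -0.10 beside -0.45, and that of Psmd8 -0.14 beside -0.33. Neither passed (limma over all features, adjusted p = 0.326 and 0.242). The second features of Psmd8 and Psma6 averaged 4.55 and 4.78, below the lowest mean tested, 5.321. Proteasome genes have many near-identical processed copies in the rat genome, and how far the features tell these apart was not tested. In RNA from sorted cells, fewer cells of a type and less RNA per cell cannot be told apart.

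Bright genes as a class were lower in the supplemented arrays, and most members are bright. Of the 46 tested members, 40 had a mean in the brightest 25% of genes. In a fit of these bright genes alone, 35 of the 40 were lower in the 10 IU diet (87.5%), against 1908 of 3627 bright genes (52.6%). Their median change was -0.40, beside -0.19 for all bright genes. After quantile normalization 33 members were lower and 2 higher, with a median of -0.26, and 15.8% of all genes were lower. After cyclic loess 32 were lower and 2 higher, with a median of -0.26, and 16% of all genes were lower. With the B cell marker mean of each array as a covariate 38 members were lower, and with the macrophage, monocyte and neutrophil marker mean also 38. In these fits 3614 and 2703 of all genes were called in either direction, against 3661 in the main fit. Without supplemented replicates 2 and 5 the count was 35, with Psma1, Psmc4, Psmd8 and Psmd9 no longer called, and 2171 of all genes were called in either direction. Of the T cell markers 5 of 12 were lower, among them Cd4, the gene the sort is named for, by -0.59 (limma, adjusted p = 0.000301), and their part in the result was not tested.

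**Figure D4:**
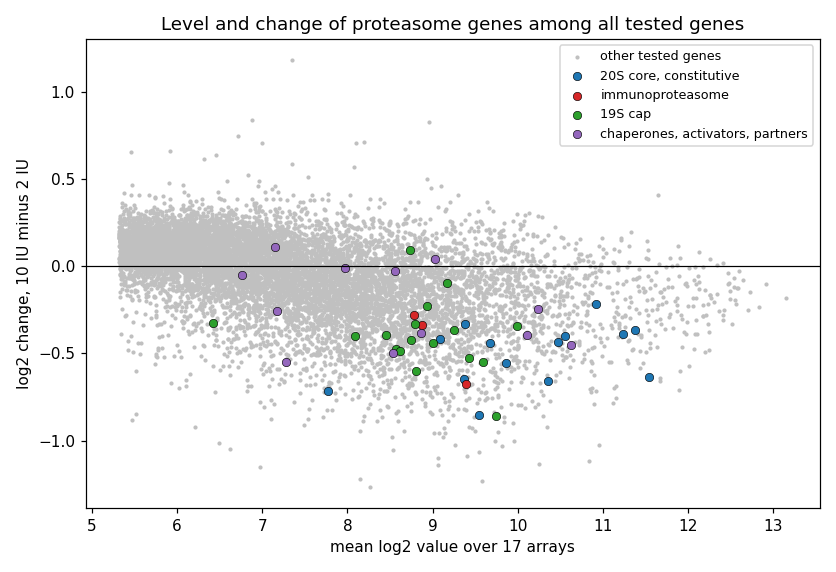
Log2 change, 10 IU minus 2 IU, against the mean log2 value over 17 arrays for all 10879 tested genes (grey) and the 46 tested proteasome genes (coloured by role). Grey points drift below 0 to the right, and 43 of the 46 proteasome genes lie below 0, most of them in the lower part of the cloud.

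In the deprived against the regular diet few proteasome genes differed. By limma, 0 members were lower (0.184% of all genes were), 2 were higher (1.49% of all genes were) and 44 did not pass. At an unadjusted p under 0.05, 1 member was lower and 6 were higher, and the share of all genes at that p is not given. The median change was 0.02. Psmd1 had log2 values of 9.32, 9.42, 9.43, 9.45 and 9.56 on the 5 arrays of the 0 IU diet, against a lowest, median and highest of 8.79, 9.11 and 9.25 in the 2 IU diet. Every deprived array lay above every regular array. Its change was 0.38 ± 0.10 (SE; limma, adjusted p = 0.0472), and the call was lost in 10 of 17 fits with 1 array left out, those without any of the 5 deprived arrays, supplemented replicate 4, or regular replicate 2, 4, 5 or 6, with changes from 0.33 to 0.42. Psme4 had 9.14, 9.17, 9.22, 9.27 and 9.35 in the 0 IU diet, against 8.81, 8.93 and 9.08 in the 2 IU diet. These did not overlap either. The change of Psme4 was 0.30 ± 0.07 (SE; limma, adjusted p = 0.0248), and it was lost without deprived replicate 2 or 6, or regular replicate 2, 5 or 6, and after quantile normalization, with 0.23. Psmc6 had 8.82, 8.86, 8.91, 8.92 and 8.94 in the 0 IU diet, against 8.35, 8.65 and 8.78 in the 2 IU diet, and did not overlap, with a change of 0.27 (limma, adjusted p = 0.0538) that missed the threshold. These were the 3 of 46 members in which every deprived array lay above every regular array, which was so for 492 of the 10879 genes tested.

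None of the 6 cutting genes passed in this comparison. Psmb5 had 7.76, 7.87, 8.03, 8.13 and 8.29 in the 0 IU diet, which straddled the 7.91 to 8.27 of the 2 IU diet. Psmb8 had 8.73, 8.86, 8.86, 8.90 and 9.00 in the 0 IU diet, against 8.79 to 9.00 in the 2 IU diet. Their within-array difference was 0.85 ± 0.17 in the 0 IU diet (SD, n = 5), against 0.86 ± 0.16 in the 2 IU diet (SD, n = 6; gap -0.0065, exact permutation, adjusted p = 0.965). Psmb9 had 9.31, 9.37, 9.55, 9.60 and 9.68 in the 0 IU diet, against 9.40 to 10.1 in the 2 IU diet, and a change of -0.18 (limma, adjusted p = 0.559). Psmb9 minus Psmb6 was -0.11 ± 0.11 in the 0 IU diet (SD, n = 5), against 0.09 ± 0.20 in the 2 IU diet (SD, n = 6), a gap of -0.20 (exact permutation p = 0.0779, adjusted p = 0.14). Without regular replicate 4 this gap was -0.26 (exact permutation, adjusted p = 0.0429). Psmb10 minus Psmb7 gave a gap of -0.03 (exact permutation, adjusted p = 0.754).

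In the supplemented against the deprived diet the list was again lower. These values share the supplemented arrays with the first comparison and the deprived arrays with the second. By limma, 41 members were lower in the 10 IU diet (28.6% of all genes were) and 0 were higher (18.6% of all genes were). At an unadjusted p under 0.05, 43 members were lower and 0 higher, and the share of all genes at that p is not given. The median change was -0.41. In 34 members every supplemented array lay below every deprived array, which was so for 17.7% of all genes. After quantile normalization 26 members were lower, with 16 of the 41 calls lost and Psmg4 gained, and after cyclic loess also 26, with 15 lost. Without supplemented replicates 2 and 5 the count was 34, with Psmb8, Psmb9, Psmc2, Psmc6, Psmd9, Psme2 and Psmg2 no longer called. The 28.6% is from the main fit, and shares of all genes in the refits are not given for this comparison. Markers of other cells differed as well. Of the stromal and endothelial markers 7 of 10 were higher and 1 lower, with array means of 6.68 to 6.77 in the 10 IU diet against 6.53 to 6.58 in the 0 IU diet. The macrophage, monocyte and neutrophil list had 4 of 12 higher and 1 lower, with 6.34 to 6.51 in the 10 IU diet against 6.22 to 6.42 in the 0 IU diet. The B cell list had 4 of 7 higher and 1 lower, with 6.20 to 6.63 in the 10 IU diet against 6.09 to 6.31 in the 0 IU diet, and of the T cell markers 7 of 12 were lower. With the B cell marker mean of each array as a covariate 38 of the 41 calls were kept. With the macrophage, monocyte and neutrophil marker mean 37 were kept and Psmg4 was gained. The part of the stromal and T cell markers in the result was not tested. Psmd14 had log2 values of 10.1, 10.1, 10.2, 10.2 and 10.4 in the 0 IU diet, and its change was -1.07 ± 0.15 (SE; limma, adjusted p = 9.01e-06). Psma4 had 9.77, 9.81, 9.85, 9.89 and 10.1 in the 0 IU diet, with a change of -0.91 ± 0.10 (SE; limma, adjusted p = 8.77e-07). Both stood clear of all 10 IU arrays, whose highest values were 9.65 and 9.41. Psmd1 changed by -0.82 ± 0.10 (SE; limma, adjusted p = 1.36e-06), and its highest array in the 10 IU diet, 8.88, lay under the lowest in the 0 IU diet, 9.32. Psmd11 changed by -0.78 and Psmd6 by -0.76.

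By role, the alpha ring had 7 of 7 lower in this comparison, the structural beta genes 4 of 4 and the constitutive cutting genes 3 of 3, with medians of -0.50, -0.42 and -0.70. After quantile normalization 2 of the 7 alpha ring genes missed the threshold, Psma1 with -0.09 and Psma5 with -0.12, as did 2 of the 4 structural beta genes, Psmb3 with -0.16 and Psmb4 with -0.14, and 0 of the 3 constitutive cutting genes. The immunoproteasome cutting genes had 3 of 3 lower with a median of -0.35, and only Psmb10 did not overlap between the diets. All 3 of them missed the threshold after quantile normalization, Psmb8 with -0.05, Psmb9 with -0.26 and Psmb10 with -0.14. All 6 cap ATPases were lower, Psmc2 by -0.14 and Psmc6 by -0.18 (limma, adjusted p = 0.0379 and 0.0461), but both turned positive after quantile normalization, to 0.10 and 0.04, and after cyclic loess. Of the non-ATPase cap subunits 10 of 11 were lower, and Psmd7 had -0.19 (limma, adjusted p = 0.076). All 4 activators were lower, with Psme4 at -0.26 (limma, adjusted p = 0.00269) and -0.03 after quantile normalization, and Psme3 at -0.22, which was 0.04 after quantile normalization. Psmg4 had -0.26 (limma, adjusted p = 0.0522) and Psmg2 -0.19 (limma, adjusted p = 0.0357), the second of which was 0.0021 after quantile normalization. Psmd5, Psmd10 and Psmc3ip had -0.07, 0.18 and 0.05 and did not pass. Psmb8 minus Psmb5 was 1.29 ± 0.09 in the 10 IU diet (SD, n = 6), against 0.85 ± 0.17 in the 0 IU diet (SD, n = 5; exact permutation, adjusted p = 0.00649). Psmb10 minus Psmb7 was -1.26 ± 0.14 in the 10 IU diet (SD, n = 6), against -1.61 ± 0.07 in the 0 IU diet (SD, n = 5; exact permutation, adjusted p = 0.00974). Psmb9 minus Psmb6 gave a gap of 0.18 (exact permutation, adjusted p = 0.412).

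Over the 3 diets together, 41 of the 46 members passed limma's moderated F test, as did 45.3% of all genes. Without supplemented replicates 2 and 5, 37 members did, and the share of all genes in that smaller fit is not given. The 5 that did not with all arrays were Psmc2, Psmc3ip, Psmd5, Psmd10 and Psmg2. The average of the 46 members per array was 9.31 ± 0.07 in the 0 IU diet (SD, n = 5), 9.28 ± 0.08 in the 2 IU diet (SD, n = 6) and 8.89 ± 0.11 in the 10 IU diet (SD, n = 6). The arrays of the 0 IU and 2 IU diets overlapped, with 9.23 to 9.39 and 9.20 to 9.42. Within the 10 IU diet, replicates 2 and 5 had the lowest averages, 8.72 and 8.79, and replicate 3 the highest, 9.01. The genes did not vary alike within that diet. Psmd14 spanned 1.19 log2 units between its highest and lowest supplemented array and Psmb9 0.86, while Psmc2 spanned 0.16.

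**Figure D5:**
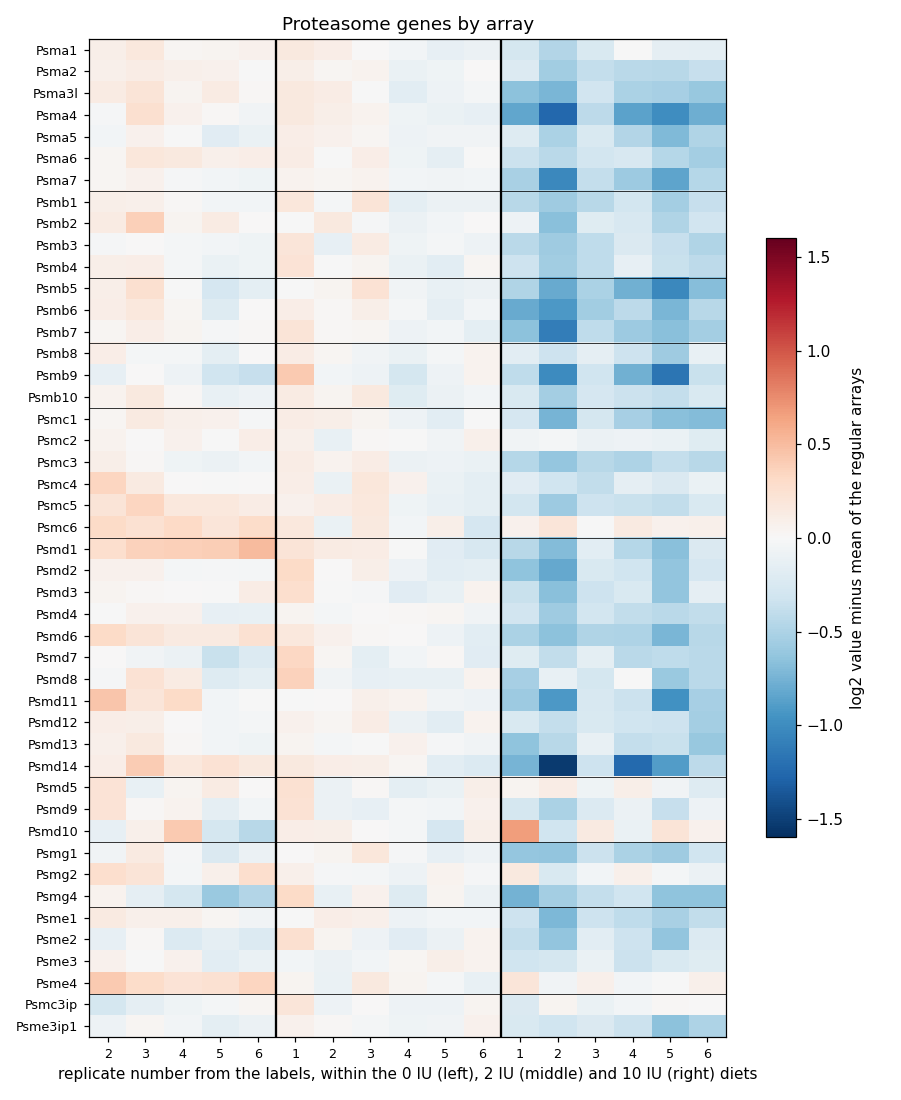
Log2 value minus the mean of the regular arrays for the 46 tested proteasome genes (rows, grouped by role) on the 17 arrays (columns, 0, 2 and 10 IU from left to right), red above and blue below that mean. The 6 columns of the 10 IU diet are blue in most rows, with Psmc6, Psmd5, Psmd10, Psmg2 and Psme4 near white or red, and Psmd1, Psmc6 and Psme4 are red in the 0 IU columns.

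Genes that work beside the proteasome were read from 5 lists. Of 13 proteasome partners outside the name rule, 10 were lower in the 10 IU than in the 2 IU diet and 0 higher by limma, against 22.9% and 10.8% of all genes. Sem1, a small cap subunit, changed by -0.70 (limma, adjusted p = 2.61e-06). Txnl1, a cap-bound thioredoxin-like protein, changed by -0.60 and Uchl5, a cap-bound deubiquitinase, by -0.55 (limma, adjusted p = 3.6e-05 and 5.67e-05). Pomp, the core maturation factor, changed by -0.52, Nfe2l1 by -0.31, Usp14, another cap-bound deubiquitinase, by -0.29 and Ngly1, which deglycosylates Nfe2l1, by -0.27. Adrm1, the cap receptor that recruits Uchl5, had a change of 0.11 (limma, adjusted p = 0.194). In the 0 IU against the 2 IU diet 3 of the 13 were higher, Txnl1 by 0.43, Uchl5 by 0.40 and Ngly1 by 0.30 (limma, adjusted p = 0.0255, 0.0289 and 0.0367), against 1.49% of all genes. In the 10 IU against the 0 IU diet 10 were lower, against 28.6% of all genes.

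Of 13 genes of ubiquitin activation and conjugation, 5 were lower and 1 higher in the 10 IU than in the 2 IU diet, against 22.9% and 10.8% of all genes. Among the conjugating enzymes Ube2s changed by -0.45, Ube2l3 by -0.39, Ube2k by -0.27 and Ube2g1 by -0.21. The higher one was the activating enzyme Uba6, with 0.17 (limma, adjusted p = 0.0236), named after its value was seen. Of 11 shuttle and unfoldase genes, 8 were lower and 0 higher by limma, against the same 22.9% and 10.8%. Vcp, the unfoldase that extracts ubiquitinated proteins, changed by -0.39 (limma, adjusted p = 6.06e-05), and its cofactors Nsfl1c, Ubxn1 and Faf1 by -0.73, -0.62 and -0.15. Of 13 genes of MHC class I antigen processing, 7 were lower (22.9% of all genes were) and 2 higher (10.8% were). The lower ones included the endoplasmic reticulum chaperones Calr, Pdia3 and Canx, with -0.77, -0.47 and -0.35, and the peptidase Npepps with -0.28. Tap1, a subunit of the peptide transporter, had -0.24 (limma, adjusted p = 0.087). The 2 higher ones were the peptidases Lnpep, with 0.29, and Tpp2, with 0.19, named after their values were seen. Of 12 genes of interferon gamma and its regulators, 5 were lower (22.9% of all genes were) and 1 higher (10.8% were). Gbp2, an interferon-induced GTPase, changed by -0.51, the kinases Jak2 and Jak1 by -0.38 and -0.31, and the receptor chain Ifngr1 by -0.32. Ifng itself had -0.09 (limma, adjusted p = 0.596) and Irf1, a factor known to drive immunoproteasome genes, -0.09 (limma, adjusted p = 0.414). Ciita, the MHC class II regulator, was the higher one, with 0.27, named after its value was seen. The median log2 level was 8.67 in the partner list, 8.92 in the ubiquitin list and 8.58 in the shuttle list. It was 9.62 in the MHC class I list and 7.97 in the interferon list, beside 7.07 over all genes tested. Of the brightest 25% of genes 52.6% were lower in a fit of these alone. The shares of all genes are thus not matched to a list's level, and whether a list changed beyond its level was not tested.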

How the data were processed

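The authors' deposited log2 expression values were used, 1 per array feature and array. Per the submitters' processing notes they were made with RMA (robust multi-array average) and Partek 6.0. That the base is 2 was inferred from the values' range. For the probe definition, the build and any filtering, the sources used here give nothing. The table holds 29214 features. A platform annotation named 1 gene for 15310 and several for 323, and did not list 13581, and names were updated through the RefSeq gene table. Each of 14506 genes was represented by the feature with the highest mean, and the lowest 25% of genes by mean were left out, which kept 10879. All 3 diets entered 1 linear model in limma 3.58.1 (R 4.3.3), whose eBayes step added 8.19 prior to 14 residual degrees of freedom. P-values were adjusted by Benjamini-Hochberg over all genes, with a threshold of 0.05. For the differences within arrays an exact two-sided permutation test was used, adjusted over 9 tests. The members and lists were chosen with earlier results of these data known. Named are the cutting subunits, the activators, Psmd4, Psmd14, in each role the 3 members with the smallest and the 2 with the largest F test p, and up to 4 genes per pathway list by that p with a few fixed ones. The fit was tested on simulated data with known changes. No 2 arrays held identical values, and the 136 correlations between arrays ran from 0.9773 to 0.9954. Arrays have no read depth, and their number limits the precision. Replicate numbers were checked as pairs: the 16 correlations of deviations between arrays of the same number in different diets ran from -0.207 to 0.195, with 4 over 0.1, so the numbers were not taken to pair arrays. No scan or hybridization batch was at hand. Alternatives were 3 normalizations between arrays, 3 filters on dim genes, 3 variance models, fits of the compared diets alone, replicate, spread and marker covariates, a threshold of 0.1, the mean of a gene's features, and arrays left out. Promoter windows and motif counts were computed in Python 3.11.15 from RefSeq sequences on GRCr8.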

Additional observations from a re-analysis of the deposited data

Results flagged for a closer look

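In 3 of 150 groups of 5 or 6 arrays, 1 member's highest or lowest array stood apart from the rest by Dixon's 95% critical value, which chance passes in about 1 of 20 groups. Psmb7 had its lowest supplemented value, 9.47, on replicate 2, where the next was 9.91 and the highest 10.2. Psmb2 had its highest regular value, 9.62, on replicate 2, where the next was 9.46 and the lowest 9.37. Psmd10 had its lowest regular value, 6.85, on replicate 5, where the next was 7.10 and the highest 7.24. The cause of these values was not tested.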

How the results depend on the processing

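The 39 calls of 10 IU minus 2 IU, all lower, became 0 with the array spread as a covariate. Under the other 16 settings 34 to 40 members were called in either direction, and 36 to 39 with single arrays left out. Quantile normalization gave 33 lower and 2 higher, Psmc6 and Psme4, and cyclic loess 32 lower and the same 2 higher. For 10 IU minus 0 IU the 41 calls became 26 after quantile normalization, 26 after cyclic loess and 0 with the spread covariate. They became 36 to 43 with single arrays left out. With the spread covariate 5 members passed at an unadjusted p under 0.05. Shares of all genes in these fits are not given. The F test's 41 became 0 with the spread covariate, where 72 of all genes passed, and 40 to 42 with single arrays left out. For 0 IU minus 2 IU the 2 calls became 0 after quantile normalization and 1 after cyclic loess, where 40 and 84 of all 10879 genes were called. They became 1 with every dim gene kept, in an ordinary linear model, with macrophage markers as a covariate and with array spread as one (Psmb9, at -0.43). With array weights 5 members were called, and 889 of all genes, against 182 in the main fit. With single arrays left out 0 to 3 members were called. With the replicate number as a block, limma called 39, 1 and 41 members, although the numbers were not found to pair arrays. Sign flips over arrays of the same number gave 0.4357 and 0.4659 for Psmb8 minus Psmb5 (10 IU minus 2 IU and minus 0 IU) and 0.3195 and 0.3297 for Psmb10 minus Psmb7, each with an exact adjusted p of 0.112; the raw p was the smallest these pairs can give. Psmb9 minus Psmb6 for 0 IU minus 2 IU ran from -0.26 to -0.14 with single arrays left out, and passed without regular replicate 4. With single arrays left out, Psmb8 minus Psmb5 ran from 0.38 to 0.46 and from 0.37 to 0.48, and Psmb10 minus Psmb7 from 0.27 to 0.36 and from 0.30 to 0.38, all past the threshold. Signs turned with the spread covariate for 10 IU minus 2 IU in Psmb2 (0.013), Psmb8 (0.086), Psmb9 (0.16), Psmb10 (0.018), Psmd3 (0.064), Psmd7 (0.035), Psmd9 (0.11) and Psme2 (0.041). For 10 IU minus 0 IU they turned in Psma5 (0.10), Psmb4 (0.023), Psmb8 (0.22), Psmb9 (0.59), Psmb10 (0.12), Psmd2 (0.10), Psmd3 (0.17), Psmd9 (0.19), Psme2 (0.31), Psme4 (0.0030) and Psmg2 (0.13). After quantile normalization signs turned for 10 IU minus 0 IU in Psmc2 (0.10), Psmc6 (0.037), Psme3 (0.036) and Psmg2 (0.0021), and after cyclic loess in Psmc2 (0.082), Psmc6 (0.021) and Psme3 (0.035). Centring each array on its median shifted all genes by -0.08 for 10 IU minus 2 IU, where 40 members were lower and 3343 of all genes lower and 312 higher (2488 and 1173 without centring), and by -0.10 for 10 IU minus 0 IU. The cause of these changes was not tested. The spread ranges of the 10 IU arrays and the others do not overlap, so the spread covariate and the diet cannot be told apart.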

Other observations

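The difference Psmb8 minus Psmb5 within an array lay close together in 0 IU and 2 IU arrays that carry the same replicate number. It was 0.87 in the 0 IU and 0.84 in the 2 IU array numbered 2, 0.57 and 0.56 in those numbered 3, and 0.83 and 0.81 in those numbered 4. In the arrays numbered 5 it was 0.96 and 0.95, and in those numbered 6 it was 1.02 and 1.00. For Psmb9 minus Psmb6 such values lay further apart, at -0.28 in the 0 IU and 0.19 in the 2 IU array numbered 6. This resemblance was seen after the values were known, it concerns 1 of 3 subunit pairs, and its cause was not tested.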
